A study of Prunus persica with 12 samples.

Results

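In the fruit flesh of the peach cultivar 'Yu Lu', 67 genes stood apart from every other group of the series while those other groups stayed close together. They were chosen by their values. With x the log2 of a group's mean RPKM plus 1, the other 5 groups had to span less than 1 and 'Yu Lu' had to lie at least 1 above the highest or 1 below the lowest of them. At least 1 group mean had to reach 5 RPKM, and at least 1 library had to stay under 500 RPKM. RPKM is the number of reads on a gene, scaled to its length and to the depth of the library. Of 27864 gene identifiers, 33 met the rule on the higher side and 34 on the lower side. Because the rule used the mean of every group, the levels below are a description of these genes, with no test of 'Yu Lu' against the rest.

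RNA was sequenced from mesocarp, the edible flesh, of 4 cultivars of Prunus persica in 12 libraries, 2 for each of 6 groups. 'Yu Lu' (YL2) was sampled at the stage numbered 2 and was labelled with strong aroma, soft melting flesh and a Brix, a measure of soluble solids, of 14.9. 'Jin Xiu Huang Tao' (JX2), also at stage 2, had strong aroma, soft melting flesh and a Brix of 12. 'Zhong Hua Shou Tao' (ZH2), at stage 2 as well, had slight aroma, hard melting flesh and a Brix of 18. 'Hu Jing Mi Lu' had soft melting flesh and was sampled at 3 ripening stages. Stage 1 (HJ1) had slight aroma and no Brix given, stage 2 (HJ2) strong aroma and 12.1, and stage 3 (HJ3) strong aroma and 12.5. The labels do not say that replicate libraries stand for different fruit or different trees, so the spread between them may be technical. The stage number does not say that fruit of different cultivars were equally ripe.

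Peach is a climacteric fruit, in which a burst of ethylene accompanies ripening, cell walls of the flesh are taken apart as it softens, and lactones and terpenoids such as linalool build up as aroma. Many transcripts change along this course, so a gene can differ between cultivars because their fruit were at different points of it. The rule kept the group means of the 3 stages of 'Hu Jing Mi Lu' within a span of 1, which left room for smaller changes between stages. The deposited tables pair their identifiers with no gene name, and a search of the reference gene table for all 27864 of them found 0. The genes are therefore given without function, position or sequence, by 4 identifiers (2 on each side) and otherwise by their rank, which runs from 1 for the largest gap between YL2 and the nearest other group. Markers of the flesh or of other tissues could not be looked up for the same reason. In bulk tissue, fewer cells of a type and less RNA per cell cannot be told apart.

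Depth, worked back from the RPKM values, ran from 1205507 reads in HJ1 replicate 2 to 3222252 in HJ2 replicate 2, and the YL2 libraries had 2460741 and 2550536 reads. Reads of the 2 libraries of a group differed by more than sampling noise in all 6 groups, with chi-square per degree of freedom from 1.75 in JX2 to 2.29 in HJ3, so no pair was counted as a single library. On the higher and lower sides together, the 67 genes were 1.39% of the 4807 genes whose other groups spanned less than 1 and that reached the level. Among those 4807 genes, YL2 lay above all 5 other groups in 1104, below all of them in 1050 and within their range in 2653.

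**Figure D1:**
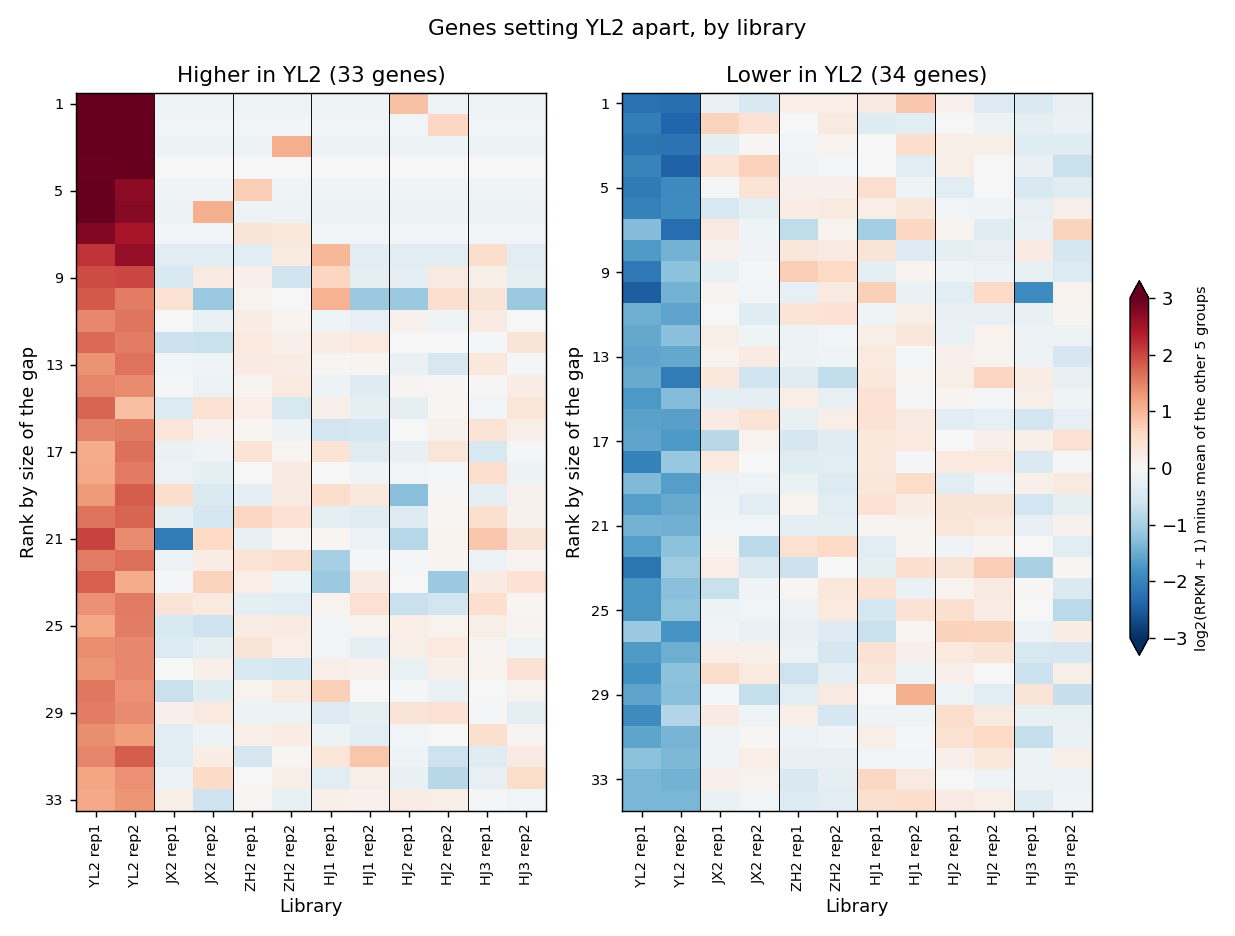
Each row is a gene (33 higher in YL2 on the left, 34 lower on the right, rank 1 on top) and each column a library; colour gives log2(RPKM + 1) minus the mean x of the 5 groups other than YL2, with values beyond 3 shown at the end of the scale. Both YL2 columns stand out along the whole height of each panel, and the deepest colours are at the top of the higher panel.

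The higher genes fell into a small set with hardly a read outside YL2 and a larger set present in all groups at a lower level. In 8 of the 33 the other 5 groups averaged under 1 RPKM. These 8 genes together had 280 reads in the 2 YL2 libraries and 12 reads in the 10 other libraries. The 12 reads were spread over the groups, with 1 in JX2, 6 in ZH2, 2 in HJ1, 2 in HJ2 and 1 in HJ3. A gene at so low a level elsewhere can reach 5 RPKM only in YL2, so genes of this kind that reach the level had to differ, and all 8 of them among the 4807 genes were members.

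The gene with the largest gap was ppa016888m, with 22.1 and 45.5 RPKM in YL2, against 0 in both libraries of JX2, ZH2, HJ1 and HJ3 and 1.01 and 0 RPKM in HJ2. Both YL2 libraries lay above all others, and they also differed from each other, with 22 and 47 reads. The group mean was 33.8 ± 16.6 RPKM in YL2 and 0.506 ± 0.715 RPKM in HJ2, the nearest group (SD, n = 2 each). The gap to HJ2 was 4.53 on the log2(RPKM + 1) scale. Corrected for depth, its 69 reads in YL2 against 1 read in the 10 other libraries gave a ratio of 285, with an exact 95% binomial interval of 49.5 to 11427 that covers counting error only. The ratio was 185 without YL2 replicate 2, and without HJ2 replicate 1, which held the read, the level in YL2 was at least 83.9-fold higher, taking 3 reads over the other libraries as the limit that a count of 0 allows.

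Next came ppa1027196m, with 24.2 and 16.9 RPKM in YL2, against 0 in JX2, ZH2, HJ1 and HJ3 and 0 and 0.639 RPKM in HJ2. Its libraries in YL2 were again above all 10 others, and here replicate 1 was the higher of the pair. The mean was 20.6 ± 5.17 RPKM in YL2 and 0.319 ± 0.452 RPKM in HJ2 (SD, n = 2 each), a gap of 4.03. The depth-corrected ratio was 207 on 50 reads in YL2 and 1 elsewhere, with an exact 95% interval of 35.4 to 8325 for counting error. Without HJ2 replicate 2, which held that read, YL2 was at least 58.2-fold higher.

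The other 6 genes of this set were lower in YL2 itself. The gene at rank 3 had 12.7 and 16.9 RPKM in YL2, and 1 read in the 10 other libraries. The gene at rank 4 had 6.81 and 6.94 RPKM in YL2, from 37 reads, and 0 reads in all 10 other libraries. With 3 reads over those libraries as the limit, it was at least 51.0-fold higher in YL2. It was the member whose YL2 libraries lay closest together in this set, and the single one with no read elsewhere. The genes at ranks 5 to 8 had means in YL2 of 7.37, 7.73, 5.60 and 5.69 RPKM, and their highest value in any other library was 1.47 RPKM. The last of them, at rank 8, had 20 reads in YL2 and 4 elsewhere. The 8 genes were 255 to 1074 bp long with a median of 595.5 bp. The median was 1136.5 bp over the 2960 genes with 17 to 73 reads in all 12 libraries, a read number like theirs, and 1540.0 bp over the 4807 genes. RPKM divides by length, so at so few reads the level of 5 RPKM favours short genes. The 2960 genes did not have to reach that level, so nothing is read from the shorter length of the 8.

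**Figure D2:**
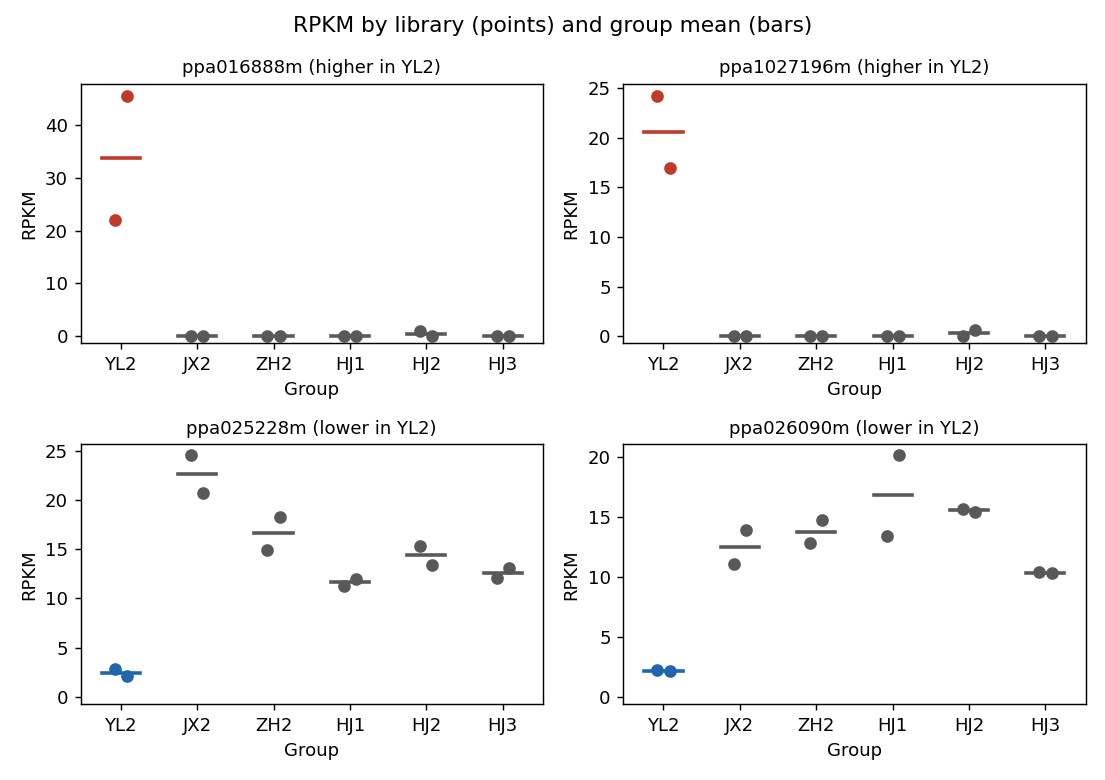
RPKM (linear axis) in each library for the 4 genes given by identifier; points are libraries and bars the mean of 2 libraries. The upper genes were near 0 in all groups except YL2, and the lower genes stood at 10.3 RPKM or more in every library outside YL2 and under 3 RPKM in both YL2 libraries.

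The remaining 25 higher genes were read in all groups and differed by less. Their gap ran from 1.03 to 1.72, with a median of 1.15, and the mean in YL2 was 2.08 to 3.65 times that of the nearest group (median 2.40). The largest gap among them, at rank 9, belonged to a gene with 23.0 and 23.7 RPKM in YL2, against 3.09 to 8.68 RPKM in the 10 other libraries with a median of 5.03. At rank 11 a more abundant gene had 145 and 162 RPKM in YL2. In the other groups it had 52.2 and 45.7 RPKM in JX2, 61.4 and 56.4 in ZH2, 47.8 and 43.8 in HJ1, 57.6 and 48.4 in HJ2, and 62.5 and 52.3 in HJ3. None of these 5 groups was set off from the rest, and the span between their means was only 0.36. The gene at rank 16 was also abundant, with 118 and 126 RPKM in YL2, against 27.6 to 55.6 RPKM in the 10 other libraries. Its other groups were farther apart, with a span of 0.84, and the lowest was HJ1 at a mean of 28.3 RPKM.

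The most abundant higher gene, at rank 28, had 498 and 429.8 RPKM in YL2. It had 103 and 127 RPKM in JX2, 177 and 198 in ZH2, 269 and 165 in HJ1, 162 and 144 in HJ2, and 163 and 176 in HJ3. The first HJ1 library was high for its group, so the nearest group was HJ1 and the ratio of means was 2.14. This gene made up a large part of the summed level of the 33 genes. That sum was 1490.4 and 1458 RPKM in the YL2 libraries, against 398 to 551 RPKM in the 10 others. Without the gene it was 993 and 1029 RPKM in YL2, against 271 to 365 RPKM in the others. Each gene was chosen as higher in YL2, so the rule builds in the distance between these sums. The next highest value of a higher gene in any library was 162 RPKM, in YL2 replicate 2 at rank 11.

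Among the 34 lower genes, no member was without reads in YL2. Every one kept at least 3 reads over both YL2 libraries, and 2 had 0 reads in a single YL2 library. Their gaps were between 1.01 and 1.92 with a median of 1.20, and the mean in YL2 was 0.158 to 0.486 of the mean of the nearest group, with a median of 0.363. The 6 genes with a gap of 1.5 or more all stayed under 2, whereas 7 of the higher genes passed 2. The median level outside YL2 was 12.9 RPKM for the lower genes and 4.97 RPKM for the higher genes. The rule builds in this contrast, since a lower gene has to reach 5 RPKM in the other groups and a higher gene does not.

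The gene ppa025228m had 2.82 and 2.09 RPKM in YL2. It had 24.5 and 20.7 RPKM in JX2, 14.9 and 18.3 in ZH2, 11.3 and 12.0 in HJ1, 15.3 and 13.4 in HJ2, and 12.1 and 13.1 in HJ3. Both YL2 libraries were below all others, JX2 was the highest group, and the 3 HJ stages lay close together. The mean was 2.46 ± 0.515 RPKM in YL2 and 11.6 ± 0.486 RPKM in HJ1, the nearest group (SD, n = 2 each), a gap of -1.87 on the log2(RPKM + 1) scale. It had 23 reads in YL2 and 602 in the 10 other libraries, a level 6.33-fold lower in YL2 after correction for depth (exact 95% interval 4.18 to 10.1, for counting error only).

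The gene ppa026090m had 2.22 and 2.14 RPKM in YL2. It had 11.1 and 13.9 RPKM in JX2, 12.8 and 14.7 in ZH2, 13.4 and 20.1 in HJ1, 15.6 and 15.4 in HJ2, and 10.4 and 10.3 in HJ3. The YL2 libraries were nearly equal and well below the rest, and within 'Hu Jing Mi Lu' stage 3 was the lowest. The mean was 2.18 ± 0.0552 RPKM in YL2 and 10.3 ± 0.0342 RPKM in HJ3, the nearest group (SD, n = 2 each), a gap of -1.83. Its 18 reads in YL2 and 473 elsewhere gave a level 6.36-fold lower in YL2 (exact 95% interval 3.98 to 10.8).

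The largest gap on the lower side, at rank 1, belonged to a gene that the rule for printing identifiers passed over because its lowest other group was under 10 RPKM. It had 1.1 and 1.06 RPKM in YL2, on 8 reads, against 6.22 to 16.3 RPKM in the 10 other libraries with a median of 8.64. At rank 4, a gene had 12.6 and 9.17 RPKM in YL2, against 71.2 and 87.5 in JX2, 50.2 and 52.1 in ZH2, 54.2 and 42.2 in HJ1, 61.1 and 53.4 in HJ2, and 45.9 and 33.7 in HJ3. It was the only gene among the first 4 lower ranks at more than 10 RPKM in a YL2 library, and like ppa025228m it was highest in JX2.

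The most abundant lower gene, at rank 13, had 80.3 and 82.3 RPKM in YL2. It had 261 and 286 RPKM in JX2, 217 and 222 in ZH2, 297 and 233 in HJ1, 269.7 and 254 in HJ2, and 218 and 171 in HJ3. Its YL2 libraries were nearly equal, and the lowest library elsewhere was HJ3 replicate 2. The next in abundance, at rank 27, had 29.9 and 35.5 RPKM in YL2, against 69.6 to 134 RPKM elsewhere. Summed over the 34 genes, the level was 275 and 305 RPKM in the YL2 libraries, against 797 to 1143 RPKM in the 10 others. Without the gene at rank 13 the sums were 195 and 223 RPKM in YL2, against 587 to 845 RPKM.

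**Figure D3:**
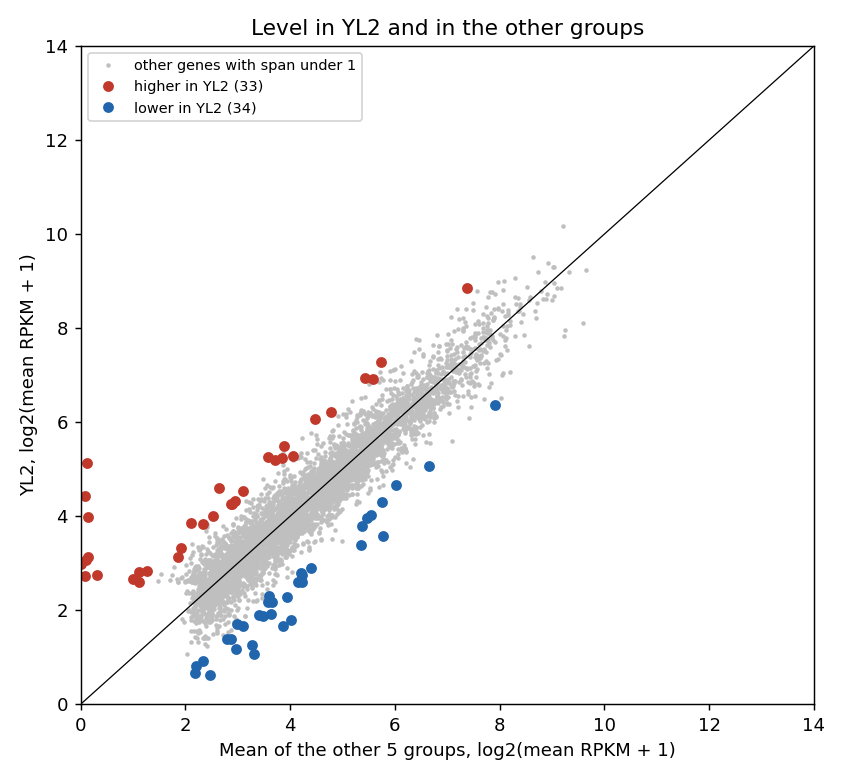
Level in YL2 (vertical) against the mean of the other 5 groups (horizontal), both as log2(mean RPKM + 1), for genes that reached the level and whose other groups spanned less than 1; the line marks equal levels. The 8 genes with other groups under 1 RPKM sit at the left edge, and the lowest of the lower genes has a mean of 0.543 RPKM in YL2.

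Both YL2 libraries stood on the same side for nearly all members, though often not by the full gap. Both YL2 libraries lay above all 10 others in 33 of the 33 higher genes, where 6.29% of the 15217 genes with at least 1 RPKM in at least 2 libraries did so. Both lay below all 10 others in 33 of the 34 lower genes, against 7.28% of the same 15217. The exception, at rank 10, had 3 reads in YL2, and a single HJ3 library at 0.508 RPKM fell between the YL2 libraries. These counts rest on the values that chose the genes, so nothing is read from their distance to the background. Taken alone against the means of the other groups, each YL2 library kept a gap of at least 1 in 20 of the higher and 19 of the lower genes. The smallest gap from a single library was 0.75 among the higher genes and 0.64 among the lower ones. Neither library was the more extreme throughout, as YL2 replicate 1 lay farther out in 13 of the 33 higher and 20 of the 34 lower genes.

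**Figure D4:**
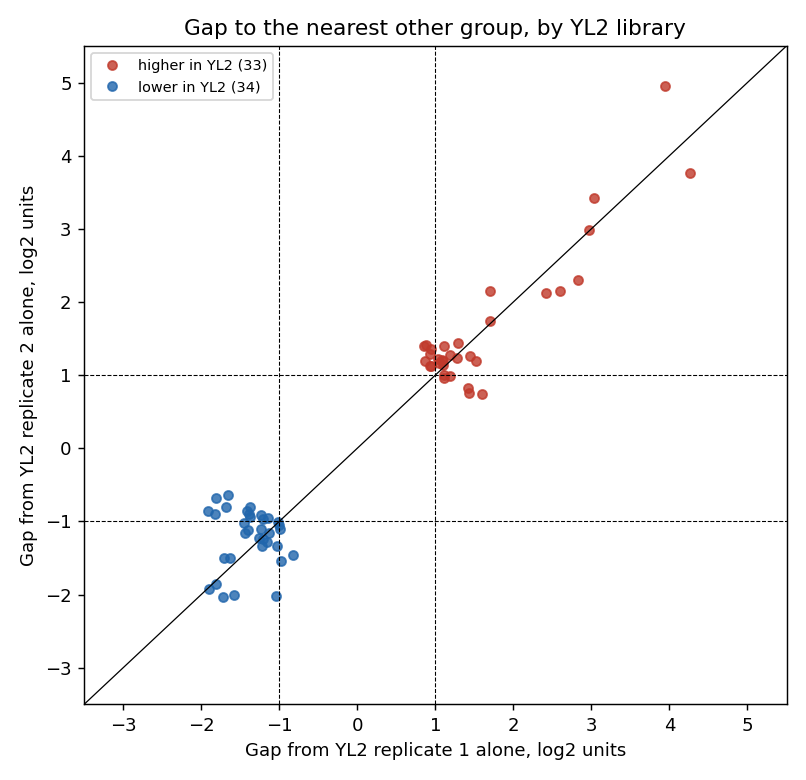
Gap to the nearest other group from YL2 replicate 1 alone (horizontal) and replicate 2 alone (vertical), in log2(RPKM + 1) units; dashed lines mark 1 and -1 and the solid line equal gaps. All points lie either above 0 or below 0 on both axes, and those between a dashed line and 0 are the members that a single YL2 library would not have met.

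The YL2 libraries were farther apart for the members than for the wider set of genes that met the span and level conditions. The median absolute difference between the YL2 libraries was 0.29 on the log2(RPKM + 1) scale for the higher genes and 0.29 for the lower genes, against 0.18 over the 4807 genes. Libraries of the other groups differed by medians of 0.14 to 0.26 for the higher genes, 0.15 to 0.35 for the lower genes and 0.16 to 0.25 over the 4807 genes. The widest of these for the lower genes was in HJ1, so YL2 was not alone in its spread. Few reads stood behind many of the lower values, with under 20 reads over both YL2 libraries in 13 of the 34 lower and 3 of the 33 higher genes. Whether depth or another source lay behind the wider spread was not tested.

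Limma, fitted on log2(RPKM + 1) of all 12 libraries with a shared estimate of the spread, was used to set the gaps beside the replicate error. A gene was called where its Benjamini-Hochberg adjusted p was under 0.05 against each of the other 5 groups. Of the 15217 genes tested, 1.89% were called higher in YL2 and 2.39% lower. All 67 members passed the filter for this fit, and 27 of the 33 higher and 28 of the 34 lower genes were called in their direction. The rule used the same contrasts, so these counts describe the spread of the members and support nothing further. The 12 members that missed the call had fewer reads at the median, though the ranges overlapped. The 6 higher ones had 17 to 245 reads in all 12 libraries (median 91), and the 27 called had 20 to 4490.0 (median 302). The 6 lower ones had 80 to 275 reads (median 117), and the 28 called had 73 to 7953 (median 577.5).

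On the deposited scale, the other 5 groups lay nearest to YL2 unequally often, even inside the span that the rule allowed. Among the 25 higher genes read in all groups, the group nearest to YL2 was ZH2 in 8, HJ1 in 6, HJ3 in 6, JX2 in 3 and HJ2 in 2. Among the 34 lower genes it was HJ3 in 15, ZH2 in 11, JX2 in 5, HJ2 in 2 and HJ1 in 1. The farthest group of the lower genes was mostly an earlier 'Hu Jing Mi Lu' stage, HJ1 in 12 and HJ2 in 11. Over all 4807 genes the lowest of the 5 groups was ZH2 in 1456 and HJ3 in 1248, and the highest was HJ1 in 1803 and ZH2 in 489. ZH2 and HJ3 were thus often the lowest groups in the wider set too, whereas ZH2, the most frequent nearest group of the higher genes, was the least frequent highest group there. The median ratio of a library's RPKM to the geometric mean of all 12 was 1.26 and 1.22 in HJ1. It was 0.97 and 0.93 in HJ3, and 0.92 and 0.91 in ZH2. Such offsets of whole libraries enter these counts, which are given on the deposited scale only.

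Within 'Hu Jing Mi Lu', the lower genes stood lower at stage 3 than at stage 1 in 29 of 34, which was 85.3%, and the median difference was -0.32 on the log2(RPKM + 1) scale. Over the 4807 genes, 66.3% stood lower at stage 3, with a median of -0.19. Of the 33 higher genes, 17 (51.5%) stood higher at stage 3, 9 lower and 7 at the same value of 0, against 33.6% higher over the 4807 genes. These differences depend on the scale. Rescaling each library by its median ratio raised the median difference of HJ3 minus HJ1 by 0.32 over all 15217 genes. On that scale 16 of the 34 lower genes (47.1%) stood lower at stage 3 and 18 higher, with a median difference of 0.046. Of the 4807 genes 35.6% stood lower, with a median of 0.16. Among the 33 higher genes 21 (63.6%) stood higher, against 64.2% of the 4807, and 5 (15.2%) lower, against 35.6%. Their median difference was 0.32 on that scale and 0.0027 on the deposited scale. The share of lower genes below stage 1 exceeded that of the 4807 on both scales, though most stood above stage 1 after rescaling. The share of higher genes above stage 1 no longer exceeded that of the 4807 after rescaling. Their share below stage 1 was smaller, and their median larger, than over the 4807 genes on both scales. The 7 higher genes at 0 in both stages stay equal under any rescaling and count in these shares. Members and the 4807 genes were chosen on the deposited scale. On the deposited scale limma called 4 of the 33 higher genes higher at stage 3 than at stage 1 and 0 lower, where 10.5% of the 15217 genes were called higher. It called 8 of the 34 lower genes lower and 0 higher, where 32.5% of the 15217 genes were called lower. The largest differences were 0.84 for a higher gene and -0.89 for a lower gene. The span rule used these stage means, so nothing is read from the counts, and no test was made of either share.

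**Figure D5:**
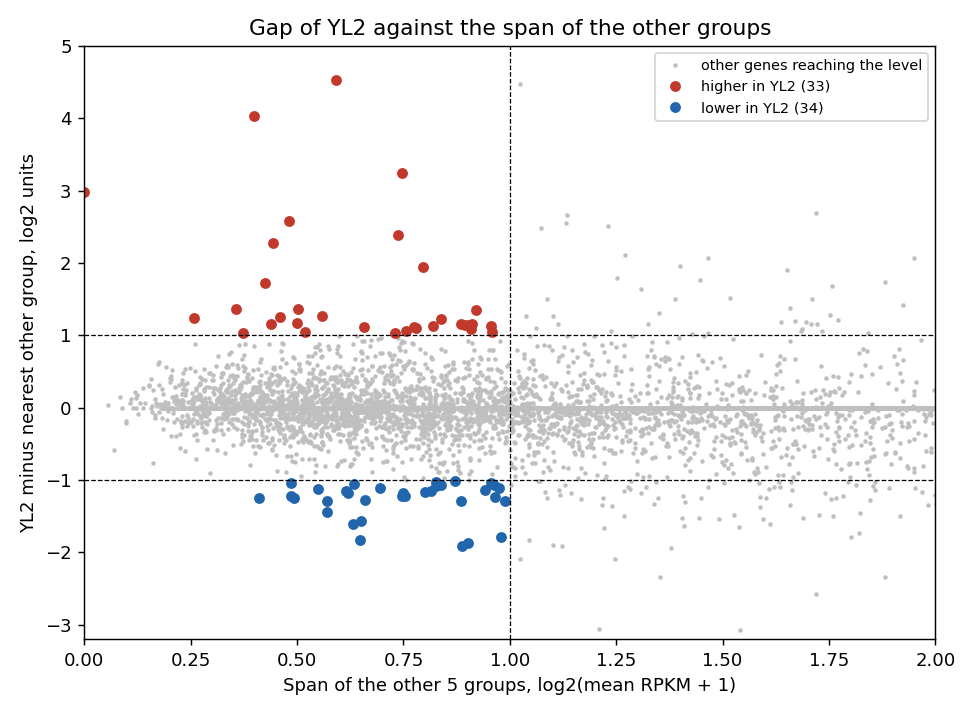
Gap of YL2 to the nearest other group (vertical) against the span of the other 5 groups (horizontal), both in log2(mean RPKM + 1) units, for genes that reached the level; dashed lines mark the thresholds, and 2666 of 11201 genes fall outside the axes. Genes whose YL2 mean lies within the range of the other groups have a gap of 0. Members lie left of the span line and beyond the gap lines, and further genes past the gap lines continue to the right of it.

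The thresholds cut through a continuous range. The higher member with the smallest gap had mean RPKM of 37.6 in YL2, 13.6 in JX2, 14.6 in ZH2, 17.1 in HJ1, 17.9 in HJ2 and 14.7 in HJ3, a gap of 1.03. The nearest gene left out had 26.7 in YL2, 8.18 in JX2, 9.80 in ZH2, 12.9 in HJ1, 11.7 in HJ2 and 9.02 in HJ3, a gap of 0.99. Among the genes with a span under 1, 36 on the higher and 26 on the lower side had a gap of 0.8 to under 1. On the lower side the closest member had 24.2 RPKM in YL2 and 49.7 in ZH2, its nearest group (gap 1.01), and the closest gene left out had 10.1 RPKM in YL2 and 21.2 in HJ3 (gap 1.00 after rounding).

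Without the limit on the span, 105 genes lay at least 1 above and 201 at least 1 below every other group. The 33 higher members were 31.4% of the 105 genes and the 34 lower members 16.9% of the 201 genes. On either side, most genes that set YL2 apart by this gap therefore varied among the other groups by more than the rule allowed. This was also so for genes at large, as 4807 of the 11201 genes that reached the level had a span under 1.

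The same rule was applied with another cultivar in the place of YL2, to see how many genes each set apart. It gave 67 genes for YL2, 21 for JX2 (11 higher, 10 lower) and 36 for ZH2 (10 higher, 26 lower). As a share of genes that met the span and level conditions this was 1.39% for YL2, 0.475% of 4418 genes for JX2 and 0.790% of 4557 genes for ZH2. Genes with the other groups under 1 RPKM numbered 8 for YL2, 6 for JX2 and 4 for ZH2 among the higher ones, while the level condition admits none among the lower ones. The median gap of the higher genes was 1.17 with YL2 apart, 2.07 with JX2 and 1.55 with ZH2, and the largest gap reached 4.53 with YL2, 4.09 with JX2 and 4.62 with ZH2. For the lower genes the median size was 1.20 with YL2 apart, 1.13 with JX2 and 1.53 with ZH2, and the largest gap measured 1.92 for YL2, 2.56 for JX2 and 3.55 for ZH2. The order of the cultivars therefore depended on the side and on the measure. The 3 lists use the same 12 libraries, and no test of their difference was made.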

How the data were processed

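Each of the 12 deposited tables holds RPKM, made by the authors, for the same 27864 identifiers. The submitters' processing notes list DESeq 1.10.1, HTSeq 0.5.3, TopHat 1.4.0 and Bowtie 0.12.8 without saying what each did. How multiply matching reads were counted, on which strand, build and annotation, is not given in the sources used here, so genes with a near-identical copy or an overlapping neighbour are uncertain. Groups were taken from the sample titles.

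RPKM values were whole multiples of what a read is worth. From them depths, reads and lengths were computed (Python 3.11.15 with pandas 2.3.3 and numpy 2.4.6), and 100% of the values of 17316 genes came out whole within 0.001 reads. The shortest length that gave whole reads was taken. Intervals and limits for 0 reads cover counting error only.

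Limma 3.58.1 in R 4.3.3 was fitted on log2(RPKM + 1) with 6 group means over all 12 libraries, for genes at 1 RPKM or more in at least 2 libraries, with a variance trend and adjustment over all genes tested; differences on this scale understate the change of low genes. The recovery of reads and the fit were tested on simulated data. The members, lists and tests were chosen with earlier results of these data known. Identifiers printed are the 2 higher and 2 lower members with the largest gap among those whose YL2 libraries lay outside all 10 others and whose higher side had a mean of at least 10 RPKM in YL2 or in the lowest other group. Genes given by rank and value were chosen after their values were seen. Planned searches of product names (wall, ethylene, aroma and tissue markers) were not run, since the 26412 genes of the reference table (assembly Prunus_persica_NCBIv2) matched 0 identifiers. Same-numbered libraries of different groups were not treated as pairs: their deviations from the group means correlated between -0.067 and 0.05 over the 15 pairs of groups, and the labels give no shared source.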

Additional observations from a re-analysis of the deposited data

How the results depend on the processing

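All counts of members and of limma calls stayed within 1.5 times the main count under the planned settings, except in 2 leave-outs given below. The members numbered 33 higher and 34 lower; with a pseudocount of 0.1 they numbered 26 and 39, of which 20 and 27 were among the original genes, and only 1 of the 8 higher genes with other groups under 1 RPKM remained, since small differences near 0 then widen the span. At a pseudocount of 0.5, 4 of those 8 remained. Rescaling by the median ratio gave 44 higher and 38 lower genes (28 and 28 shared), depth counted without the 10 most abundant genes 49 and 46 (28 and 30 shared), and a level of 10 RPKM 22 and 26; dropping the cap of 500 RPKM changed neither list. Leaving out each library in turn gave 27 to 40 higher and 30 to 46 lower genes. Of the members, 9 higher and 12 lower met the rule in all 12 leave-outs, and the fewest remained without YL2 replicate 2 (25 higher) and without YL2 replicate 1 (22 lower). With libraries of replicate number 1 only, added after seeing the data, 37 higher and 44 lower genes met the rule (16 and 21 shared), and with those of number 2 only 40 and 41 (21 and 18 shared).

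Limma called 288 of all genes higher and 364 lower; leaving out a library gave 158 to 287 and 267 to 346, with 163 higher calls without YL2 replicate 1 and 158 without YL2 replicate 2, and 20 to 27 higher and 23 to 27 lower members. With the replicate block the calls were 281 and 360, including 26 and 25 members. Each group held 1 library of each replicate number, so the block could change the error of a group difference but not the difference itself. For the 4 genes given by identifier, the limma adjusted p against the nearest group rose with the block but stayed under 0.05. Limma voom on whole reads, added after seeing the data, called 391 and 365, including 27 and 27 members. Over both YL2 libraries the lower members had a median of 29.5 reads and the higher members 105 reads, which sets the counting error of their YL2 levels.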

Other observations

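Gene lengths worked back from the RPKM values entered the rule only through RPKM, which divides by length. At few reads the level of 5 RPKM therefore favours short genes, and the lengths below are not independent of the rule. The higher members had a median length of 1076 bp and the lower members 1424 bp, against 1540.0 bp over the 4807 genes that met the span and level conditions. A length that is a multiple of 3 was found in 22 of the 33 higher and 20 of the 34 lower members, and in 7 of the 8 higher genes with other groups under 1 RPKM. Over the 4807 genes the share was 46.1%, and over the 2960 genes with 17 to 73 reads in all 12 libraries, the range of those 8 genes or wider, it was 69.5%. Identifiers beginning with ppb made up 1 of the 33 higher and 1 of the 34 lower members, against 1.06% of the 4807 genes. These are descriptions of few genes, with no test and no explanation offered.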
